A study of Mus musculus with 10 samples.

Results

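Mutations in olfactory and vomeronasal receptor genes were taken from the deposited exome table of mouse proximal colon organoids by symbol, as every entry whose gene is Olfr, Vmn1r or Vmn2r followed only by digits. This gave 29 of the 163 listed mutations, in 28 genes. The members were chosen by the authors' having listed these positions as mutated, and the family was singled out with its share in each culture already known, so counts and shares by culture are given as a description without a test. All organoids came from male C57BL/6 mice about 40 days old that carried a heterozygous, Cre-activable BrafV600E allele, an activating form of a MAPK pathway kinase. In 3 cultures, numbered 1 to 3, lentiviral Cre had switched the allele on, and after 5 months these were grown for 3 weeks in Base medium, which lacks the stem-cell niche factors. Empty-vector cultures received the lentiviral backbone without Cre and were grown for the last 3 weeks in full medium with Wnt3a, R-spondin, Noggin and EGF. Of these, number 1 after 12 months and number 3 after 14 months had a mutation list, and the 5 remaining empty-vector cultures, at 2 or 5 months, were not analysed here. Oncogene, medium and time in culture all change together between the groups and cannot be told apart. The table gives no read depth and no share of mutant reads. All 29 mutations are listed as coding changes, 27 missense and 2 frameshift (6.90% truncating, beside 10 of 134, or 7.46%, in other genes), and lie inside the RefSeq gene of their symbol. Exons were not assigned.

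Olfactory receptors are G-protein-coupled receptors that detect odorants in sensory neurons of the nose. Each neuron expresses a single receptor gene, and the genes lie in tandem clusters of close paralogues on many chromosomes. Vomeronasal receptors of the Vmn1r and Vmn2r families serve pheromone and kairomone detection in the vomeronasal organ, and Vmn2r receptors carry a long extracellular ligand-binding part encoded by several exons. They are not among the genes that define colon epithelium. Reads from close paralogues are hard to place uniquely, so the assignment of a mutation to 1 family member is uncertain. The authors' read placement is not given in the sources used here.

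One substitution lay close enough to a gene start to be shown in its sequence. The 14-month empty-vector culture listed A57545305G in Vmn2r120, where the name gives the listed reference base, the GRCm38 position and the listed variant on the plus strand, here of chromosome 17 (authors' p of 3.3e-08). Vmn2r120 lies on the minus strand from 57508783 to 57545314. The RefSeq sequence (GRCm38.p6) holds the complement of the listed reference base at that position, and counted from 1 at the A of the opening atg the change reads T10C on the gene strand, the first base of codon 4. The 50 bases from the start of the gene (chr17:57545265-57545314, minus strand) are shown with the mutated base in capitals, followed by the same stretch of 2 paralogues that were most like it and of 2 that carry the variant base at the same offset.
Vmn2r120: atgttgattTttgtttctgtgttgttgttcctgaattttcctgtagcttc
Vmn2r116: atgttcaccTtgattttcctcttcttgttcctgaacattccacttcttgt
Vmn2r66: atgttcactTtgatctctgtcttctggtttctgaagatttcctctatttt
Vmn2r97: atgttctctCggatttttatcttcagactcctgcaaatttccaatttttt
Vmn2r12: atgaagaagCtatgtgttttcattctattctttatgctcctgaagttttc
Vmn2r116 and Vmn2r66 each matched Vmn2r120 at 31 of 50 bases, Vmn2r97 at 24 and Vmn2r12 at 21, compared base by base without gaps. Among 100 other Vmn2r genes whose RefSeq window opens with atg, base 10 was T in 63, C in 20 and A in 17. The listed variant base therefore stood at this offset in 20.0% of these 100 genes.

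Both truncating mutations in the families were single-base frameshifts in the related genes Vmn2r33 and Vmn2r43, listed with the same deleted base. BrafV600E culture 3 listed a deleted T, entered at position 8257592 of chromosome 7 with reference base G, in Vmn2r43 (8244348 to 8260599, minus strand; authors' p of 0.00414). The 14-month culture listed a deleted T, entered at position 7563746 with reference base G, in Vmn2r33 (7550967 to 7566786, minus strand; authors' p of 3.1e-06). The genes lie 693846 bp apart by these positions, with 5 other receptor genes between them. Their RefSeq windows around the gene start aligned locally over 267 columns, of which 257 were identical (96.3%). Most of these columns lay before the opening atg. Identity was not computed at the deleted bases or against other Vmn2r genes. The 16 coding bases that both windows hold are shown with the differing base in capitals.
Vmn2r33: atgttCactttgatgg
Vmn2r43: atgttAactttgatgg
Counted along the genome from the A of atg, introns included, the positions entered, whose reference base is not the deleted one, were base 3041 of Vmn2r33 and base 2974 of Vmn2r43, 67 bases apart. The equally numbered cultures share the name BRAF3 in the deposited table, and the labels do not say whether that name marks the same mouse.

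Neighbouring paralogues with the same change occurred once within a culture. The 14-month culture listed A130112250T in Olfr823 (authors' p of 0.000111) and A130126517T in Olfr824 (authors' p of 0.000102) on chromosome 10. These olfactory receptor genes are adjacent members of the MOR210 subfamily by their older names, run from 130111841 to 130112788 and from 130126108 to 130127055, and are both 948 bases long. Each mutation lay at base 410 from the lower end of its gene, 14267 bp from the other, so the same change was listed at the same offset with nearly the same p in both. These were the only members, 2 of 29, that shared their collapsed change with a mutation in another receptor gene of the same culture within 1 Mb. Of the 134 mutations in all other genes, 2 also had such a neighbour in another gene, and no test was run on these counts. In all, 6 of 29 receptor mutations (20.7%) had another receptor mutation of the same culture within 1 Mb, and 16 of 134 mutations in other genes (11.9%) had another such mutation that near. This was not tested, and receptor genes lie in clusters. The others were Olfr608 and Olfr635, 508862 bp apart in the 14-month culture with different changes, and the pair in Olfr153. Across cultures, the mutations in Olfr17 (12 months) and Olfr711 (14 months) lay 125973 bp apart on chromosome 7, with 3 receptor genes between them. Both collapse to C-to-A, listed as C-to-A in Olfr17 and as G-to-T in Olfr711.

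Olfr153 was the only receptor gene listed more than once. BrafV600E culture 3 carried C87532716T (authors' p of 9.22e-17) and A87532818C (authors' p of 1.57e-07), 102 bp apart on chromosome 2. The gene runs from 87532035 to 87532958 on the plus strand, and the changes fell at codons 228 and 262 of 308, each at codon position 1. The next listed receptor mutation on this chromosome, T87575663A in Olfr1129 (authors' p of 1.51e-23), was in the 14-month culture, 42845 bp from the nearer Olfr153 position with 1 receptor gene between them. No receptor gene was listed in more than 1 culture.

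The cultures differed in how many receptor mutations they listed. BrafV600E cultures 1 to 3 had 2, 4 and 5, and the 12-month and 14-month cultures had 6 and 12. Every long-term culture thus listed more than any BrafV600E culture, by 1 mutation at the nearest. The whole lists held 31, 22 and 46 mutations in BrafV600E cultures 1 to 3, and 24 and 40 in the long-term cultures. As shares of each list the receptor counts were 6.45%, 18.2% and 10.9% against 25.0% and 30%, and the groups did not overlap. The family was singled out with these values known, so the lack of overlap is no support for a difference. Exact 95% intervals treat the mutations of a culture as independent and cover counting error only. They overlapped widely for BrafV600E culture 2 (5.19 to 40.3%) and the 12-month culture (9.77 to 46.7%). For BrafV600E culture 1 (0.79 to 21.4%) and the 14-month culture (16.6 to 46.5%) the overlap was narrow. Group means were 11.8% ± 5.92 (SD, n = 3) and 27.5% ± 3.54 (SD, n = 2). Divided by months in culture, the order was lost. The BrafV600E cultures listed 0.4, 0.8 and 1.0 receptor mutations per month and the long-term cultures 0.5 and 0.857, so the groups overlapped (0.733 ± 0.306, SD, n = 3, against 0.678 ± 0.252, SD, n = 2). They are no rates of mutation, since nothing states what each list was compared with. RefSeq holds 1459 genes of these families among 21887 protein-coding genes (6.67%), a share of gene number and not of sequence captured.

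**Figure D1:**
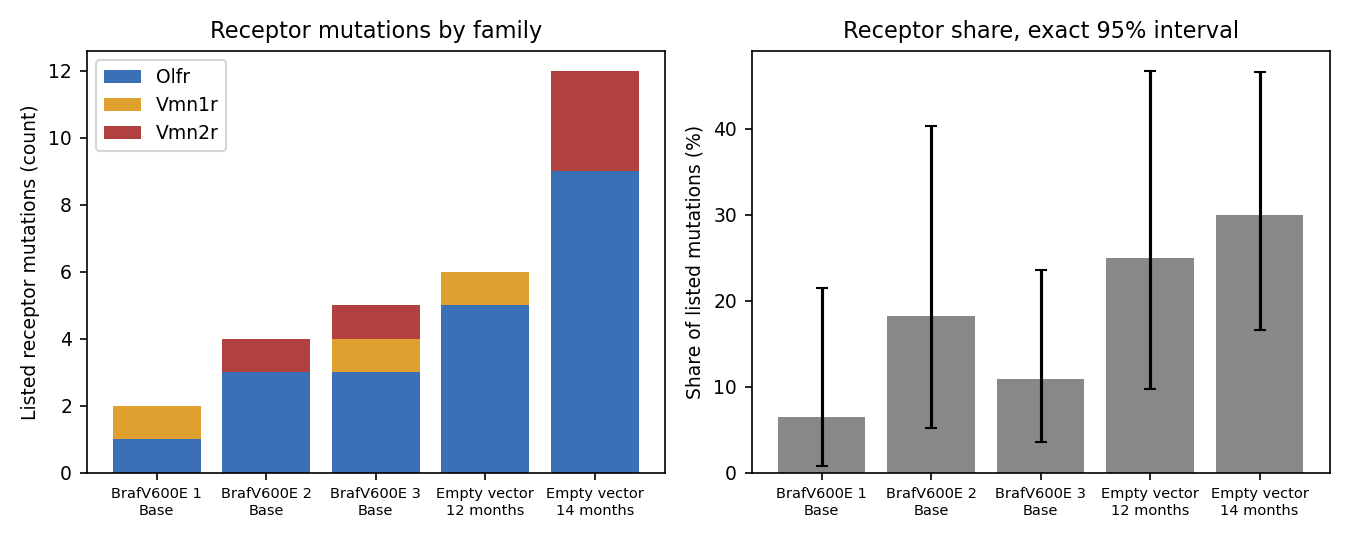
Left, listed receptor mutations in each culture, stacked by family; right, the receptor share of all listed mutations of each culture in percent, with exact Clopper-Pearson 95% intervals as bars. The 12-month and 14-month cultures, with 6 and 12 receptor mutations, stand above the BrafV600E cultures, with 2, 4 and 5, while the intervals overlap. The family was singled out with these values known.

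Olfr genes, the main odorant receptors, held 21 of the 29 mutations, in 20 genes, with 7 in the BrafV600E and 14 in the long-term cultures. They were 72.4% of the members and 75.8% of the 1459 family genes. Vmn1r genes, which are intronless vomeronasal receptors, held 3 (10.3%, against 15.8% of family genes) and Vmn2r genes held 5 (17.2%, against 8.43%). The split by family was thus near that of the genes, apart from a Vmn2r share that rests on 5 mutations. Vmn2r genes span a median of 24544 bp with introns, against 950 bp for Olfr and 924 bp for Vmn1r genes. These spans are not the length captured in an exome, and exon lengths were not available. By the older MOR names, which 20 Olfr mutations could be matched to, 18 fell in class II receptors, typical of land vertebrates. The 2 class I mutations, in receptors related to those of fish, were Olfr608 and Olfr635, both in the 14-month culture.

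Chromosomes 7 and 2, which hold the largest receptor clusters, carried 10 and 8 of the 29 mutations. Family genes are placed there at 28.4% and 19.6%, and the mutations at 34.5% and 27.6%. Other listed mutations lay there at 8.21% and 5.22%. Chromosomes 10 and 17 had 3 each, chromosome 16 had 2, and chromosomes 9, 11 and X had 1 each. With receptor genes up to 1 Mb apart joined into clusters, the mutations fell into 13 of 71 clusters, and 27 of 29 lay in a cluster of more than 1 gene, as do 1440 of the 1459 family genes (98.7%). The exceptions were Vmn2r120 and Vmn2r121, whose nearest family gene lay 1884048 and 49532064 bp away. All 8 mutations of chromosome 2 fell in a single cluster of 222 Olfr genes (85330967 to 90401674), from 4 of the 5 cultures. None came from BrafV600E culture 1. On chromosome 7, the cluster of 126 Olfr genes that holds the class I receptors (102476773 to 105369317) had 2 mutations and the cluster beside it (106677534 to 108894405, 65 Olfr genes) had 3, from the 12-month and 14-month cultures alone.

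**Figure D2:**
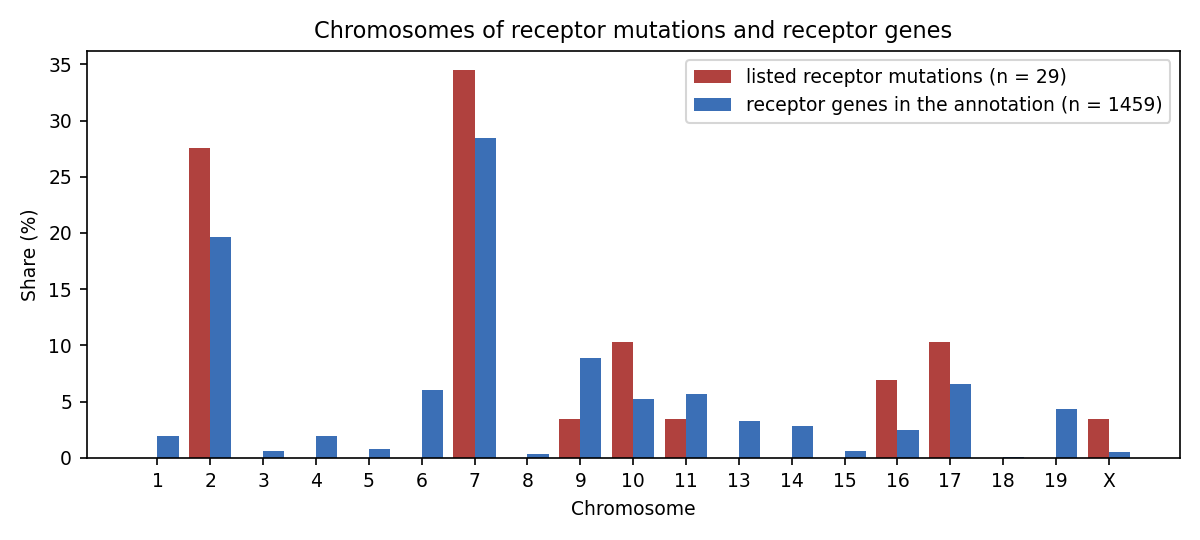
Share of the 29 listed receptor mutations on each chromosome, in percent, beside the share of the 1459 annotated receptor genes there. Chromosomes 7 and 2 lead in both, with 34.5% and 27.6% of mutations and 28.4% and 19.6% of genes.

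Within each culture, the authors' p of receptor mutations spanned many orders of magnitude. What a small p reflects is not known, because its test is not stated. In BrafV600E culture 1, Olfr322 had C58666104G on chromosome 11 (p of 1e-10) and the vomeronasal receptor gene Vmn1r185 had A26611987C on chromosome 7 (p of 0.00413). In BrafV600E culture 2 all 4 receptor mutations had a p of 1.57e-08 or below. The smallest was that of Vmn2r107 (A20356541G, chromosome 17, p of 7.29e-25). Olfr1043 (A86162271C, chromosome 2, p of 8.58e-18), Olfr202 (T59284371G, chromosome 16, p of 8.81e-18) and Olfr1195 (A88682917G, chromosome 2, p of 1.57e-08) followed. In BrafV600E culture 3, Olfr799 (T129647229G, chromosome 10, p of 9.04e-35) had the smallest p among all members. The same culture listed Vmn1r81 with A12260278C on chromosome 7 (p of 4.5e-11), beside Olfr153 and Vmn2r43. None of the 29 carried the authors' mark for COSMIC cancer genes (0 of 29), which 7 of the 134 other mutations did (5.22%).

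The 12-month culture listed 1 vomeronasal and 5 olfactory receptor genes. Olfr1248 (A89617553C, chromosome 2, p of 1.56e-15) and Olfr299 (T86465783C, chromosome 7, p of 4.46e-15) had the smallest p-values. Olfr987 (T85331688C, chromosome 2, p of 4.14e-07) and Olfr17 (C107097812A, chromosome 7, p of 4.38e-07) followed. Olfr17 is the P2 receptor by its older name, a gene much used to trace olfactory axons. Olfr183 (T59000027C, chromosome 16, p of 0.000252) and Vmn1r235 (G21261542T, chromosome 17, p of 0.0497) had the largest, the latter just under 0.05.

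The 14-month culture had the longest set. Besides the genes described above, Olfr1013 (C85770438A, chromosome 2, p of 1.12e-18) and Olfr493 (G108346750A, chromosome 7, p of 1.17e-15) had the smallest p-values. The class I genes followed, Olfr635 with C103979522A (p of 3.65e-10) and Olfr608 with T103470660C (p of 1.26e-09), both on chromosome 7. Olfr711 (G106971839T, chromosome 7, p of 8.65e-06) lay just inside a p of 1e-05 and Olfr968 (A39771876C, chromosome 9, p of 3.4e-05) just outside. Vmn2r121 (C124135761G, chromosome X, p of 0.0308) had the largest p.

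Receptor mutations had smaller authors' p-values than the other mutations of the same list in 4 of 5 cultures. The median -log10 p of receptor mutations was 6.19, 17.1 and 10.3 in BrafV600E cultures 1 to 3 and 6.37 and 6.50 in the 12-month and 14-month cultures. For all other genes it was 7.42, 6.04 and 5.51, and 4.44 and 3.28. BrafV600E culture 1, with 2 receptor mutations, was the exception. The mean difference was 3.96 ± 4.53 (SD, n = 5 cultures) on the -log10 scale and did not pass the two-sided exact sign-flip permutation test (p = 0.125, adjusted p = 0.3125 over 5 tests, where 5 cultures allow no p below 0.063). Without BrafV600E culture 2 the difference was 2.19, among mutations with a p of 1e-05 or below it was 1.79, and with Olfr genes alone it was 6.34. At or below a p of 1e-05 stood 21 of the 29 receptor mutations (72.4%), where 54.6% of all listed mutations did. Between groups, the medians of receptor mutations overlapped (11.2 ± 5.48, SD, n = 3, against 6.43 ± 0.0880, SD, n = 2; two-sided exact permutation p = 0.4, adjusted p = 0.625, where 0.1 is the smallest possible). Without BrafV600E culture 2 this difference fell from 4.77 to 1.84. How the authors computed this p is not stated, and depth and mutant read share are unknown, so their part in it was not tested.

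**Figure D3:**
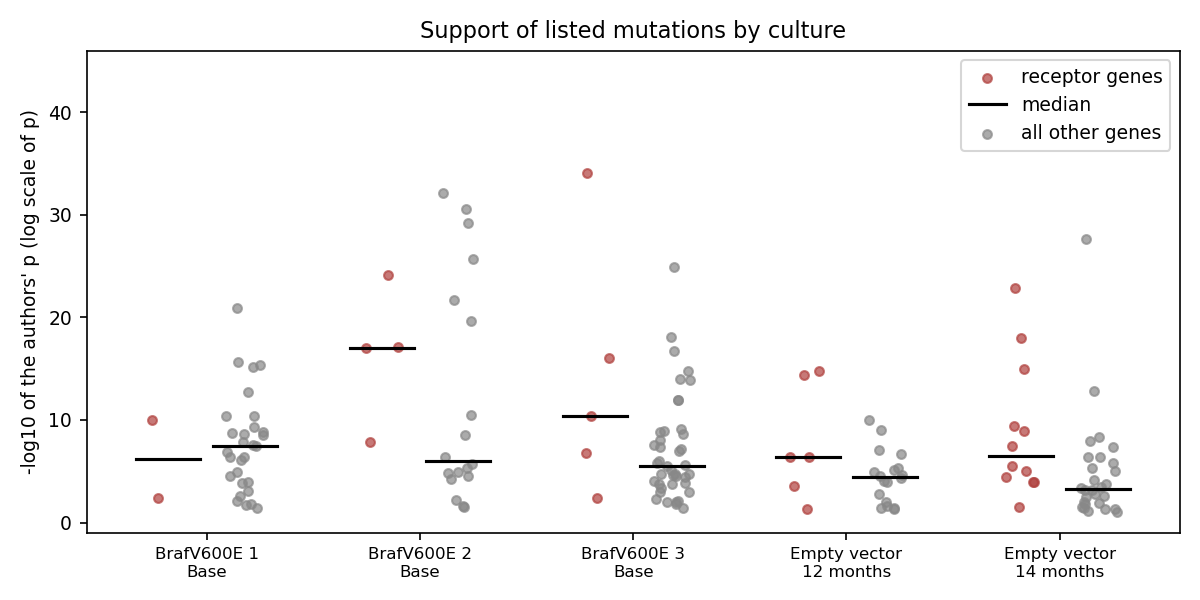
The -log10 of the authors' p for every listed mutation (points) in each culture, for receptor genes and for all other genes, with the median as a black line. The receptor median stands above that of other genes in each culture except BrafV600E culture 1 (6.19 against 7.42).

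Receptor substitutions fell mostly on T:A base pairs. Collapsed to the pyrimidine of the pair, the 27 substitutions were 8 T-to-G, 7 T-to-C, 5 C-to-A, 3 T-to-A, 2 C-to-G and 2 C-to-T. In the 128 substitutions of other genes, pooled over cultures, C-to-A led with 43 and C-to-T followed with 26. T:A pairs therefore held 18 of 27 receptor substitutions (66.7%) and 45 of 128 others (35.2%). By culture, the receptor counts were 1 of 2, 4 of 4 and 3 of 4 in BrafV600E cultures 1 to 3, 4 of 6 in the 12-month culture and 6 of 11 in the 14-month culture. The counts in other genes were 7 of 28, 4 of 17, 18 of 40, 5 of 16 and 11 of 27. The receptor share was thus the higher one in 5 of 5 cultures, with a mean difference of 36.1 ± 23.9 percentage points (SD, n = 5). The two-sided exact sign-flip permutation test gave p = 0.063, the smallest that 5 cultures allow, and an adjusted p of 0.3125, which does not pass. This comparison was chosen after the classes had been seen, and the adjustment does not count the classes looked through. The direction in 5 of 5 cultures and these p-values are therefore no support for a difference. Base composition at gene starts also differed. Where a RefSeq gene model opens with atg, the A+T content of the first 50 bases was taken. Its median was 56.0% in 685 Olfr genes, 58.0% in 180 Vmn1r genes, 66.0% in 101 Vmn2r genes and 50.0% in 945 other genes. The 945 are few beside the 21887 protein-coding genes of RefSeq and need not include genes with a listed mutation. Whether each opening atg is a start codon was not checked, and these stretches are not the captured exons. The part of base composition in the T:A difference was not tested.

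**Figure D4:**
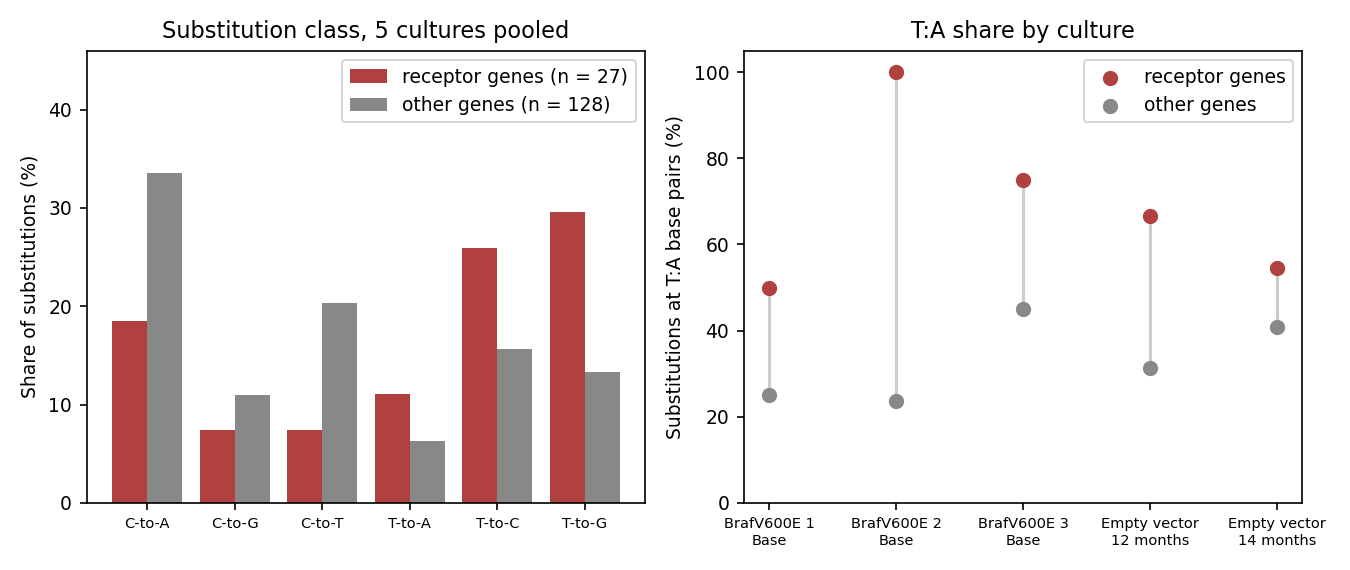
Left, the share of substitutions in each pyrimidine-collapsed class in percent, for receptor genes (27 substitutions) and all other genes (128), over 5 cultures. Right, the share at T:A base pairs in each culture, where the receptor point lies above that of other genes in all 5.

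C-to-A, the class that led in other genes of the pooled cultures, was not seen among receptor genes of the BrafV600E cultures. There 0 of 10 receptor substitutions were C-to-A, against 33 of 85 in other genes, while the long-term cultures had 5 of 17 and 10 of 43. In other genes of the long-term cultures C-to-T led instead, with 13 of 43. The leading receptor class in the BrafV600E cultures was T-to-G with 6 of 10, in Vmn1r185, Olfr202, Olfr1043, Olfr799, Olfr153 and Vmn1r81. These were counts pooled over cultures and were not tested. Transitions made up 9 of 27 receptor substitutions (33.3%, exact 95% interval 16.5 to 54.0%) and 46 of 128 others (35.9%). That interval pools substitutions over cultures as if independent, so it covers counting error only and not the spread between cultures. Within cultures, receptor shares of transitions ran from 0 to 50.0% and the difference from other genes was -4.76 ± 19.2 points (SD, n = 5; two-sided exact sign-flip permutation p = 0.625, adjusted p = 0.625). Among mutations with a p of 1e-05 or below its direction turned to 6.76 points. Between groups, transition shares of receptor substitutions of 25.0% ± 25.0 (SD, n = 3) and 38.6% ± 16.1 (SD, n = 2) did not differ beyond the spread between cultures (two-sided exact permutation p = 0.5, adjusted p = 0.625). Without BrafV600E culture 1 that difference was -1.14 points and without the 12-month culture -2.27, while without BrafV600E culture 2 it was -26.1 and without the 14-month culture -25.0.

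For 15 substitutions in 14 genes the codon could be counted, because the RefSeq model opens with atg, spans a multiple of 3 bases and is under 1200 bases long, as for an uninterrupted coding sequence. They fell at codon position 1 in 6 cases, position 2 in 7 and position 3 in 2 (Vmn1r81, codon 134 of 307, and Olfr1013, codon 212 of 306). All are listed as missense changes. Changes at codon position 3 are often silent, and the table lists no silent mutation. The positions were spread over the coding models, from 9.58% of the length in Vmn1r185 to 87.8% in Olfr1195, with a median of 43.7%. C107097812A in Olfr17 and C103979522A in Olfr635 both fell in codon 116, at codon positions 1 and 2, in genes of different classes and in different cultures. Codons were counted from the atg of each model and the genes were not aligned, so an equal number need not mark the same site.

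**Figure D5:**
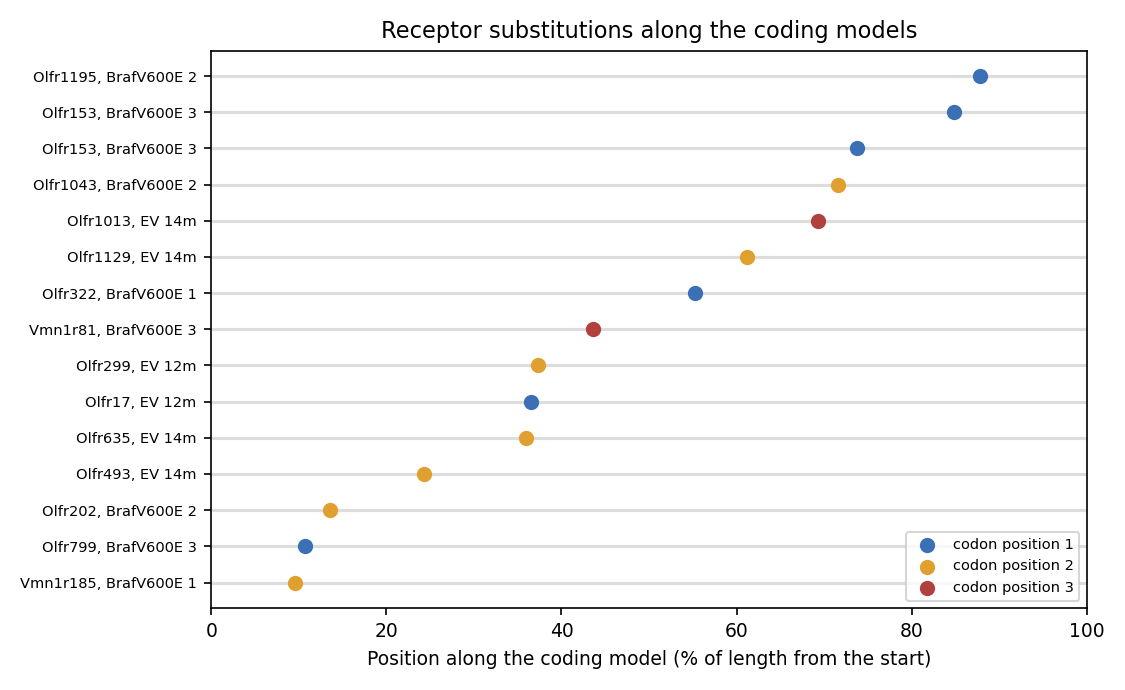
Position of 15 receptor substitutions along the coding model of their gene, in percent of its length from the start, coloured by codon position. They run from 9.58% in Vmn1r185 to 87.8% in Olfr1195, and 13 of the 15 lie at codon positions 1 or 2.

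Other chemosensory genes gave counts too small to read. For scale, 151 of 21887 protein-coding genes (0.69%) had a listed mutation under the same symbol. RefSeq held 80 genes for trace amine, taste, formyl peptide and Mas-related receptors, and 1 listed mutation bore a symbol of these kinds. Both were found by the first letters of the symbol, so the listed gene need not be among the 80. It was Mrgpra6, a Mas-related name, with a frameshift in the 14-month culture (a deleted A, entered at position 47188837 of chromosome 7 with reference base C, authors' p of 4.79e-08). Of 27 genes for olfactory signal transduction and receptor transport, such as Gnal, Adcy3 and Cnga2, 0 were listed. Genes of other large families, counted by the first letters of their symbol alone (among them Zfp, Pcdh and Skint), numbered 814 and had 11 listed mutations, 4 in the BrafV600E and 7 in the long-term cultures. Such a match also takes in genes outside tandem clusters, such as Pcdh10 with 2 of the 11, so no comparison with the receptors was made.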

How the data were processed

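Exome libraries (TruSeq, paired-end HiSeq reads) were made from genomic DNA, per the labels' protocols. The submitters' processing notes name mm10 and GRCm38. No source used here names the aligner, caller, filters, statistical test or comparator. The deposited table gives, for each mutation, a position and a p-value that the authors computed. Depth is unknown. The members, lists and measures were chosen with earlier results of these data known. All 29 members lay inside the RefSeq gene (GRCm38.p6) of their symbol, and a strand and start window were found for 25. Named were all members and any listed gene of the chemosensory lists.

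The culture was the replicate. Group means were compared by two-sided exact permutation over 10 splits, and receptor with other mutations of a culture by two-sided exact sign-flip permutation, with Benjamini-Hochberg adjustment over 5 tests. The planned tests of receptor number and share are not reported, because the family was chosen by them. Nothing says that the BrafV600E cultures came from separate mice, so p-values measure only the spread between these cultures. Windows were aligned with Biopython 1.88 (local, match 2, mismatch -3, gap opening -5, extension -2). Python 3.11.15, pandas 2.3.3, scipy 1.17.1 and statsmodels 0.14.6 were used. Test code was checked on simulated data. Alternatives were left-out cultures, p filters, merged calls, substitutions only, other family definitions and the replicate block.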

Additional observations from a re-analysis of the deposited data

How the results depend on the processing

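Mean differences in the median -log10 p (between groups and within cultures) and in the T:A share kept their direction under every alternative run. So did the mean difference in the transition share between groups. For the T:A share this holds for the mean and not for each culture. Receptor number and share chose the family, so their values under the alternatives are no support for a difference. Leaving out 1 culture gave 1.84 to 7.27 for the median -log10 p between groups, -26.1 to -1.14 points for transitions between groups, 2.19 to 5.25 and -12.6 to -0.321 for the -log10 p and transitions within cultures, and 26.1 to 41.7 points for the T:A share. No exact p lay below 0.05, which these designs cannot reach. The within-culture transition difference turned to 6.76 points at a p of 1e-05 or below, where fewer calls are left. Receptor mutations sharing a change with a neighbour numbered 2, ran from 0 to 2 over left-out cultures, were 0 at a p of 1e-05 or below and 4 at any distance on the chromosome. With the replicate block on culture numbers 1 and 3, the differences were -18.8 points (share), -5.5 (number), 1.84 (-log10 p) and -26.1 points (transitions), with 2 pairs allowing no p below 0.5. Whether the numbers pair the cultures is not stated. The T:A measure was chosen after seeing the data. With depth unknown, a mutation that is not listed cannot be taken as absent.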
